A study of Mus musculus with 16 samples.

Results

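Membrane serine proteases and their Kunitz-type inhibitors were followed through the division of the mouse cloaca. The set holds 8 genes of the 23234 features in the deposited tables, chosen by gene symbol: the proteases St14, Prss8, Tmprss2, Tmprss4, Hpn and Prss22, and the inhibitors Spint1 and Spint2. Each symbol matched 1 feature. The tissue came from male wild-type embryos of the outbred CD1 stock and was cut by laser from stained frozen sections. At E13.5 the groups were the urethra, labelled as pelvic urethral epithelium, and the hindgut, labelled as rectal and hindgut epithelium. At E10.5 they were the ventral and the dorsal part of the cloaca, the chamber shared by gut and urinary tract. Each of the 4 groups had 4 libraries, and the sample names tie the paired regions of an age to the same 4 embryos. The authors deposited FPKM (fragments per kilobase of transcript, scaled by sequencing depth), with 1 value per gene, region and age and none per library. The spread between embryos and the depth of the libraries are therefore unknown, no value below has an error or a p-value, and whether groups overlap cannot be seen.

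Matriptase, the product of St14, is a type II transmembrane serine protease of epithelia. It works with prostasin, the GPI-anchored product of Prss8, in a cascade at the cell surface that is best known for its part in the epithelial barrier and in activating the epithelial sodium channel. HAI-1 and HAI-2, the membrane-bound products of Spint1 and Spint2, carry Kunitz domains that block these proteases. Hepsin (Hpn), Tmprss2 and Tmprss4 are further type II transmembrane serine proteases, and TMPRSS2 is known in the human prostate as an androgen-induced gene. The product of Prss22 is a trypsin-like protease that is described as secreted, so it meets the name of the set less well than the others.

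On mm10 the tables place Spint2 (XLOC_018914) on chromosome 7 from 29256330 to 29281977, Hpn (XLOC_018960) on the same chromosome from 31098725 to 31115326, and Prss8 (XLOC_019578) from 127912517 to 127930113. St14 (XLOC_021608) lies on chromosome 9 from 31088590 to 31131799 and Tmprss4 (XLOC_021717) on the same chromosome from 45172726 to 45249985. Tmprss2 (XLOC_008169) spans 97564682 to 97611195 of chromosome 16, Prss22 (XLOC_008846) 23993534 to 23998100 of chromosome 17, and Spint1 (XLOC_011161) 119237360 to 119249513 of chromosome 2. The span of Prss8 is listed jointly with that of its neighbour Kat8, and 122 of the 1852 exon bases of Prss8 are also exon of Kat8 on the other strand. Kat8, a histone acetyltransferase gene, had 16.7 FPKM in the E13.5 urethra and 18.6 in the hindgut, and 14.8 in ventral and 11.5 in dorsal cloaca at E10.5. The sources used here do not say how reads of the shared bases were divided, which leaves the level of Prss8 less certain. The span of Tmprss4 is listed jointly with that of BC049352, which shares no exon base with it and was listed at 0 in the E13.5 urethra and had 0.127 FPKM in the hindgut. In the GENCODE annotation the genes themselves are shorter than these joint spans, with Prss8 from 127925716 to 127930104 and Tmprss4 from 45172726 to 45204092. There a further gene on the other strand, Gm17099, shares 412 of the 2589 exon bases of Tmprss4.

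RefSeq promoters on GRCm38.p6, the assembly that mm10 represents, were matched for 4 of the 8 genes. The 250 bases before the start are shown for the inhibitors, which had the highest levels, and for Tmprss2, the protease at least 2-fold lower on the ventral side at both ages. Capitals mark 3 short motifs, found on either strand. They are AACCGG for grainyhead-like factors, the letters CCGGAA for Ets factors, and an E-box with the letters CACCTG. They were chosen after the promoters had been looked at. The windows are chr2:119237110-119237359 (plus strand) for Spint1, chr7:29281978-29282227 (minus strand) for Spint2 and chr16:97611196-97611445 (minus strand) for Tmprss2.
Spint1: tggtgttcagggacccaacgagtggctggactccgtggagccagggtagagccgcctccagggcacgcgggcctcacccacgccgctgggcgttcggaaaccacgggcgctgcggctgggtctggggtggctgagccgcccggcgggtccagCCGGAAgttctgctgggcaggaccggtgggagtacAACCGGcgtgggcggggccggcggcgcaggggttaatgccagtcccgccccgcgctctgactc
Spint2: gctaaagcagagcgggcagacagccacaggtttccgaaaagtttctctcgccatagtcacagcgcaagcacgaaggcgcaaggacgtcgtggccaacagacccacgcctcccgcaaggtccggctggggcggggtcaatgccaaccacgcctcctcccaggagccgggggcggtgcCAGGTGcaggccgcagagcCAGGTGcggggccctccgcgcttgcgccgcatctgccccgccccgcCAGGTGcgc
Tmprss2: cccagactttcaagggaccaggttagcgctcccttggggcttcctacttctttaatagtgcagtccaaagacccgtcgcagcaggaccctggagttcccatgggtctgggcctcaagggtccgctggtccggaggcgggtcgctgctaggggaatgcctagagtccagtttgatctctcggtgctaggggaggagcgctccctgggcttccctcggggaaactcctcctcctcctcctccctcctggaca
The Spint1 window holds AACCGG once and CCGGAA once, which 5.62% and 12.03% of the 32851 promoters of the table do at least once. The Spint2 window holds CACCTG, read as CAGGTG, 3 times, and 0.247% of promoters hold it 3 or more times. None of these marked matches overlaps another or a GC box (GGGCGG), of which the Spint1 and Spint2 windows hold 3 each. Of all promoters, 8.47% hold 3 or more GC boxes. The Tmprss2 window holds none of the 4 motifs. The window of Spint1 has 26 CG pairs, that of Spint2 24 and that of Tmprss2 10, against a median of 6 over all promoters. Fewer CG pairs were held by 90.4% of promoters for Spint1, 88.0% for Spint2 and 62.2% for Tmprss2. A match describes letters only.

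Spint1 and Spint2 were the most abundant members in all 4 groups. In bulk tissue such as this, fewer cells of a type and less RNA per cell cannot be told apart. Spint2 had 236 FPKM in the E13.5 urethra and 296 in the hindgut, and 89.2 in ventral and 117 in dorsal cloaca at E10.5. It ranked 315 and 291 from the top among all features in urethra and hindgut, and 697 and 502 in ventral and dorsal cloaca. It was lower on the ventral side at either age, with FPKM ratios of 0.798 at E13.5 and 0.763 at E10.5, but at E13.5 this turned round when the regions were scaled to epithelium markers.

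Spint1 had 83.5 FPKM in the E13.5 urethra and 110 in the hindgut, and 101 in ventral and 82.2 in dorsal cloaca at E10.5. Its ranks from the top were 820 and 667 at E13.5 and 604 and 732 at E10.5. The urethra to hindgut ratio was 0.757, which also turned round under that scaling, and the ventral to dorsal ratio was 1.23. Whether the ages differ in this respect could not be tested.

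Among the proteases, St14 and Prss8 were within 2-fold of each other in each group, and each was within 2-fold between regions. Prss8 stood at 0.609 times St14 in urethra and 1.41 times in dorsal cloaca, the lowest and the highest of the 4 groups. St14 had 30.9 FPKM in the E13.5 urethra and 38.0 in the hindgut, and 29.2 in ventral and 26.9 in dorsal cloaca at E10.5. It stood at percentiles 90.0, 91.5, 89.3 and 88.7 of all features in those groups. The matriptase gene thus kept nearly the same place in each of the 4 groups.

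Prss8 had 18.8 FPKM in the E13.5 urethra and 31.0 in the hindgut, and 35.8 in ventral and 37.9 in dorsal cloaca at E10.5. Its urethra to hindgut ratio was 0.607 and its ventral to dorsal ratio 0.944. The urethra had the lowest level of the 4 groups, at percentile 83.6 against 89.6 in hindgut, and 91.4 and 92.4 in ventral and dorsal cloaca. Levels of the 2 ages come from separate tables, and the sources used here do not say whether these were normalized together, so percentiles within a group are given beside the levels.

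**Figure D1:**
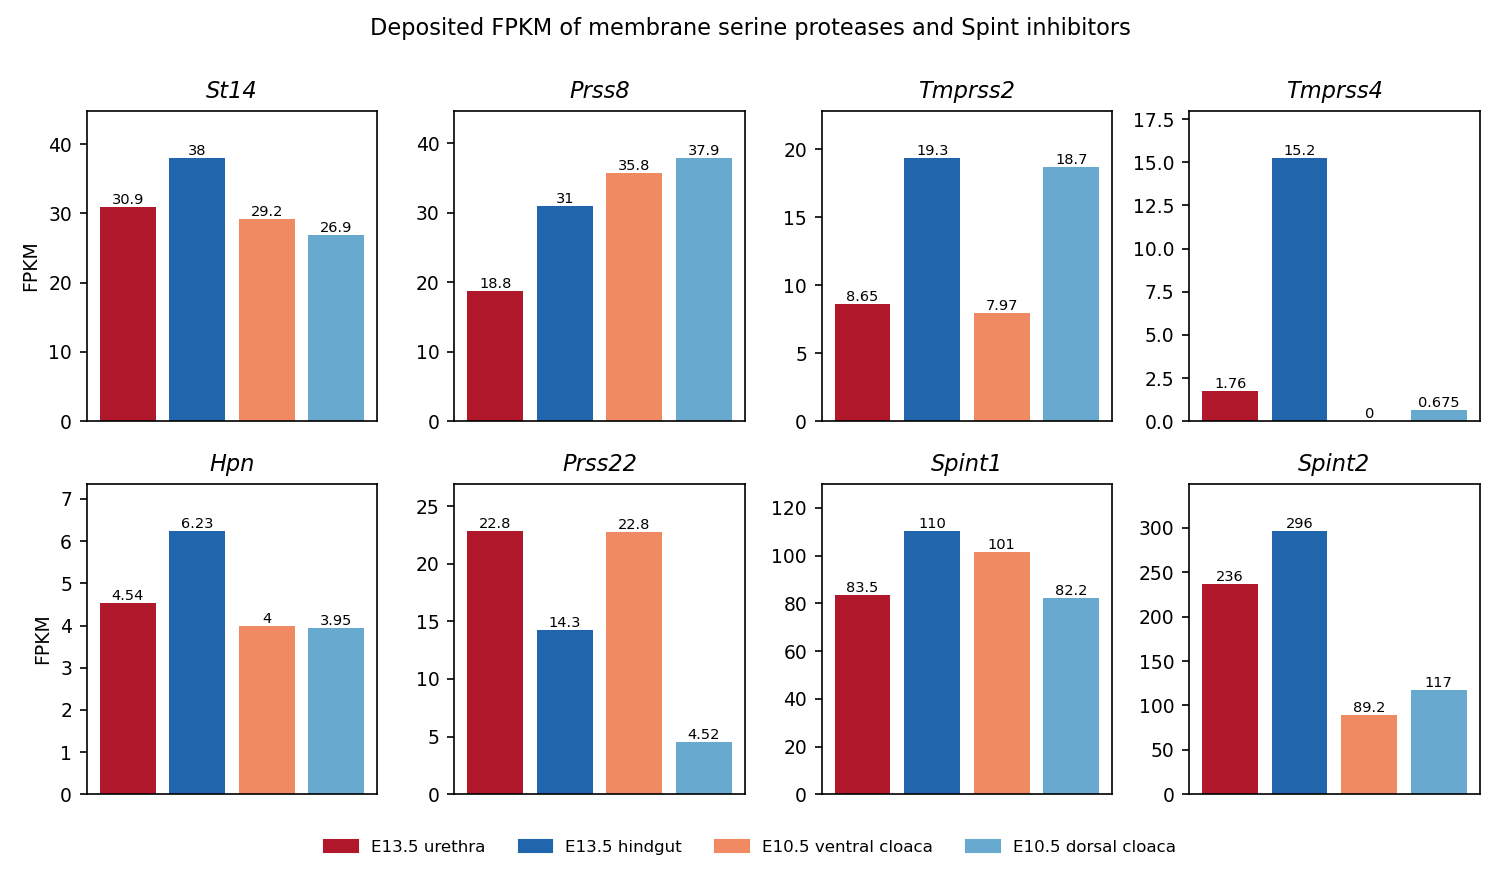
Deposited FPKM of the 8 genes, 1 panel each with its own axis from 0, in E13.5 urethra, E13.5 hindgut, E10.5 ventral cloaca and E10.5 dorsal cloaca; each bar is the authors' value for a region and has no error. Tmprss2 is at 8.65 and 7.97 FPKM in urethra and ventral cloaca, against 19.3 and 18.7 in hindgut and dorsal cloaca, while Tmprss4 is at 1.76 FPKM in urethra and 15.2 in hindgut.

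Regional differences of at least 2-fold were found for Tmprss2 at both ages, Tmprss4 at E13.5 and Prss22 at E10.5. They were measured as the difference of log2(FPKM + 1), ventral side minus dorsal side, and differences of 1 or more in size, 2-fold on that scale, were counted. Genes with at least 1 FPKM in either region were counted. This is a rule of size and not a test. At E13.5 all 8 members passed the minimum; 2 were lower in urethra than in hindgut, 0 were higher and 6 lay within 2-fold, where 4.59% of the 12369 features above the minimum were lower and 4.16% higher. At E10.5, 7 of the 8 members passed; 1 was lower in ventral than in dorsal cloaca, 1 was higher and 5 lay within 2-fold, where 9.62% of 12379 features were lower and 10.6% higher. The median difference of the members that passed was -0.39 at E13.5 and 0.01 at E10.5, beside 0.01 and 0.04 over all features that passed. The 12 epithelium markers had a median of -0.64 at E13.5, and their part in the lower urethral values was not tested. With so few members these counts say nothing about the set as a group.

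Tmprss2 had 8.65 FPKM in the E13.5 urethra and 19.3 in the hindgut, and 7.97 in ventral and 18.7 in dorsal cloaca at E10.5. The difference was -1.08 at E13.5 and -1.13 at E10.5. This protease gene was thus lower on the ventral side at either age, with FPKM ratios of 0.447 and 0.426. Of the features above the minimum, 3.92% had a lower difference at E13.5 and 7.36% at E10.5. A pseudocount of 5 gave -0.83 and -0.87, both short of 2-fold. Scaling to the epithelium markers gave -0.48 at E13.5, short of 2-fold, and -1.14 at E10.5.

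Tmprss4 had 1.76 FPKM in the E13.5 urethra and 15.2 in the hindgut, a difference of -2.56 and an FPKM ratio of 0.115. Only 0.655% of features above the minimum had a lower difference. At E10.5 it was listed at 0 in ventral cloaca and had 0.675 FPKM in dorsal cloaca, below the minimum, so no fold is given. Its percentile among all features was 52.9 in urethra and 80.3 in hindgut, and 48.1 in dorsal cloaca. The hindgut was the 1 group of the 4 in which Tmprss4 passed 5 FPKM.

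Prss22 ran the other way. It had 22.8 FPKM in the E13.5 urethra and 14.3 in the hindgut, a difference of 0.64 and an FPKM ratio of 1.60. At E10.5 it had 22.8 FPKM in ventral and 4.52 in dorsal cloaca, a difference of 2.11 and an FPKM ratio of 5.04. It was the sole member higher on the ventral side at both ages in the deposited values, but scaling to the epithelium markers put St14 (0.34 and 0.11), Spint1 (0.24 and 0.29) and Hpn (0.16 and 0.01) above 0 at E13.5 and E10.5 too. At E10.5, 98.2% of features above the minimum had a lower difference than Prss22. Its level and its percentile, 86.3 in urethra and 86.2 in ventral cloaca, were alike on the ventral side, whereas on the dorsal side the percentile was 79.3 in hindgut and 63.3 in dorsal cloaca.

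Hpn was low in all 4 groups. It had 4.54 FPKM in the E13.5 urethra and 6.23 in the hindgut, and 3.998 in ventral and 3.95 in dorsal cloaca at E10.5. Its difference was -0.39 at E13.5 and 0.01 at E10.5, within 2-fold at either age.

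**Figure D2:**
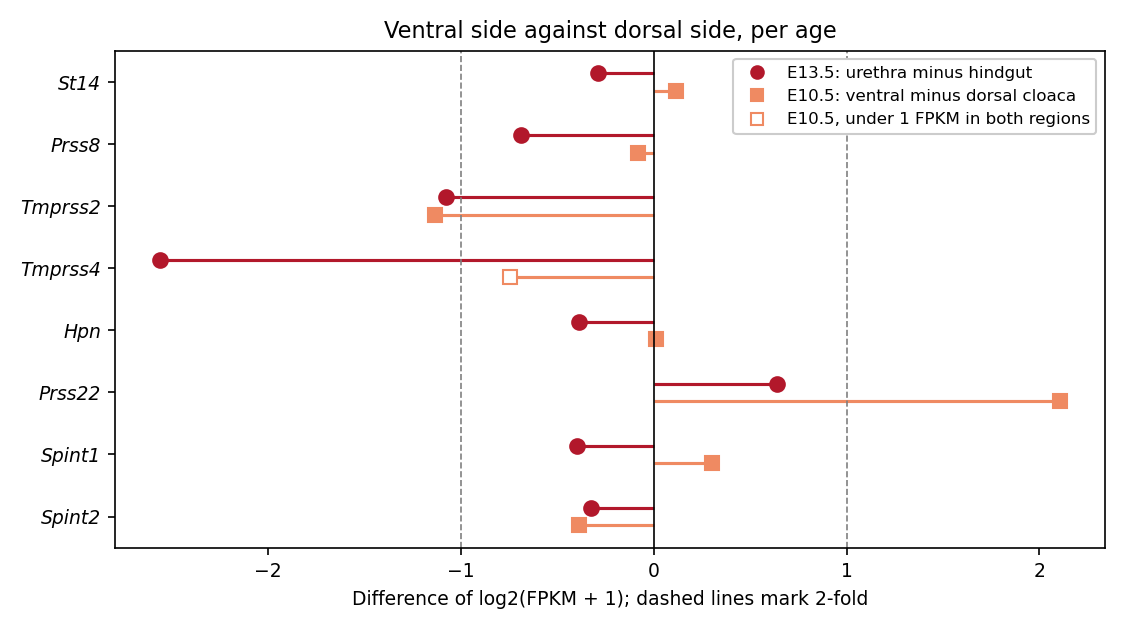
Difference of log2(FPKM + 1) for each of the 8 genes, urethra minus hindgut at E13.5 (circles) and ventral minus dorsal cloaca at E10.5 (squares), with dashed lines at 2-fold and an open square where both regions were under 1 FPKM; points are single deposited values without error. Tmprss2 lies at -1.08 and -1.13, Tmprss4 at -2.56 at E13.5, and Prss22 at 0.64 and 2.11.

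In level, the members ran in the order Spint2, Spint1, St14, Prss22, Prss8, Tmprss2, Hpn and Tmprss4 in urethra. In hindgut it was Spint2, Spint1, St14, Prss8, Tmprss2, Tmprss4, Prss22 and Hpn. In ventral cloaca it was Spint1, Spint2, Prss8, St14, Prss22, Tmprss2, Hpn and Tmprss4, and in dorsal cloaca Spint2, Spint1, Prss8, St14, Tmprss2, Prss22, Hpn and Tmprss4. Without values per library it cannot be said which neighbours in these orders differ beyond the spread between embryos.

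The make-up of the protease set differed by region. The proteases summed to 87.5 FPKM in the E13.5 urethra and 124 in the hindgut, and to 99.7 in ventral and 92.6 in dorsal cloaca at E10.5. St14 and Prss8 together made up 56.8% of the sum in urethra and 55.6% in hindgut, and 65.2% in ventral and 69.9% in dorsal cloaca. Prss22 took 26.1% in urethra against 11.5% in hindgut, and 22.8% in ventral against 4.88% in dorsal cloaca. Tmprss2 took 9.89% in urethra against 15.6% in hindgut, and 8.00% in ventral against 20.2% in dorsal cloaca. Tmprss4 took 2.01% in urethra and 12.3% in hindgut. The ventral side thus had a larger share of Prss22 and the dorsal side a larger share of Tmprss2, at either age.

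**Figure D3:**
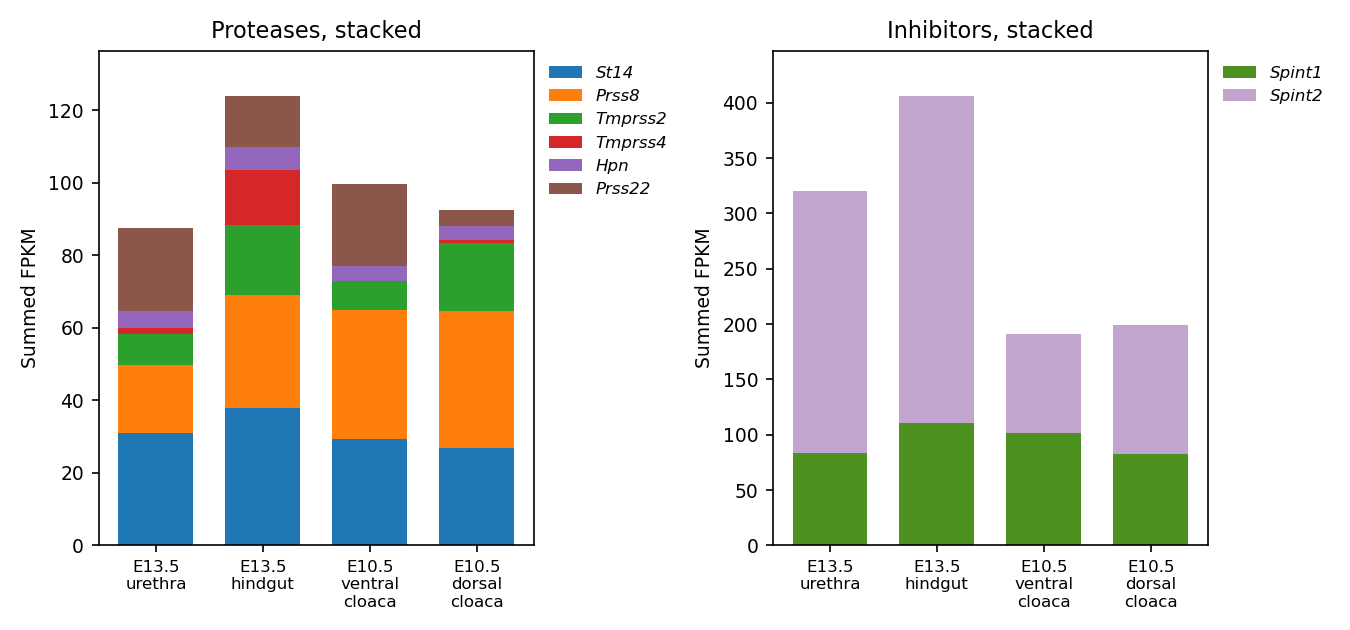
FPKM of the 6 proteases (left) and of Spint1 and Spint2 (right), stacked by group on axes from 0, without error. The protease sum is 87.5 FPKM in urethra and 124 in hindgut, 99.7 in ventral and 92.6 in dorsal cloaca, and the inhibitor sum is 320 and 406 at E13.5 and 191 and 199 at E10.5.

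Ratios between members within a region are unchanged by a single scaling factor per region, though not by quantile normalization, which gave differences at E13.5 of -0.12 for Spint2 and -0.30 for Spint1. The summed inhibitors stood at 3.66 times the summed proteases in the E13.5 urethra and 3.28 times in the hindgut, against 1.91 times in ventral and 2.15 times in dorsal cloaca at E10.5. Spint1 stood at 2.70 and 2.90 times St14 in urethra and hindgut, against 3.47 and 3.06 times in ventral and dorsal cloaca. Spint2 stood at 2.83 and 2.69 times Spint1 in urethra and hindgut, against 0.880 and 1.42 times in ventral and dorsal cloaca. The Spint2 to Prss8 ratio was 12.6 and 9.55 at E13.5, against 2.49 and 3.09 at E10.5. Prss8 stood at 0.609 and 0.816 times St14 in urethra and hindgut, against 1.22 and 1.41 times in ventral and dorsal cloaca. All of these ratios that hold Spint2 on top were greater in either E13.5 group than in either E10.5 group, whereas the Spint1 to St14 ratio was lower in either E13.5 group than in either E10.5 group. Ages differ in embryos, and no spread between embryos is known, so these differences have no test.

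**Figure D4:**
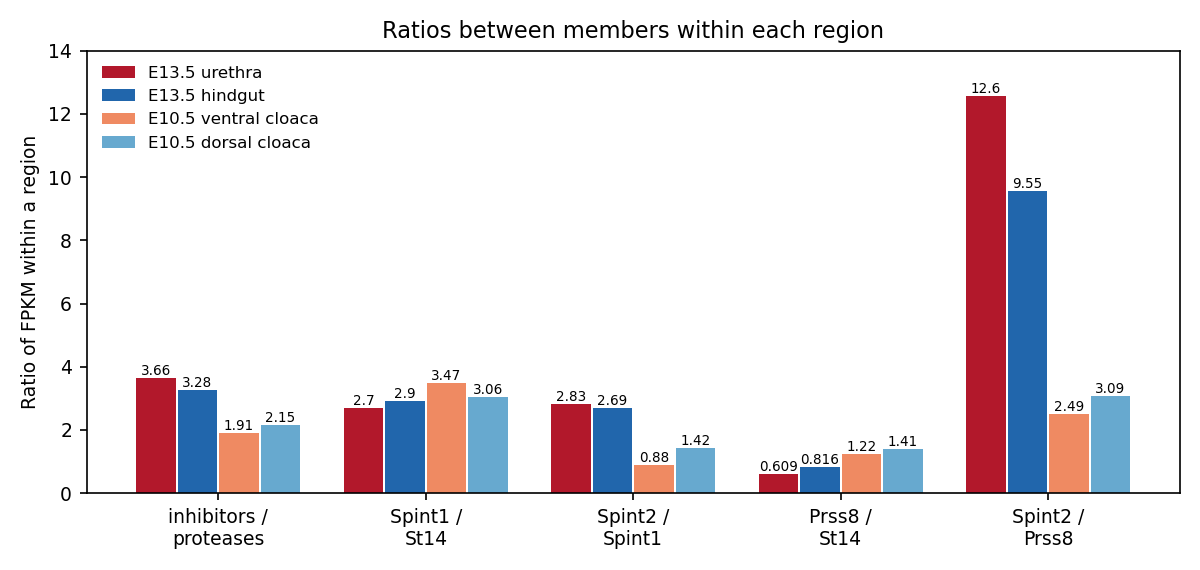
Ratios of FPKM between members within each of the 4 groups, on a linear axis from 0, without error. The Spint2 to Prss8 ratio is 12.6 in urethra and 9.55 in hindgut, against 2.49 in ventral and 3.09 in dorsal cloaca, while the Spint1 to St14 ratio lies between 2.70 and 3.47 in all 4 groups.

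Most epithelium markers were abundant, and most were lower in urethra than in hindgut. Of 12 epithelium markers, 10 had a lower FPKM in urethra than in hindgut, and 3 were at least 2-fold lower. Of all features above the minimum, 4.59% were at least 2-fold lower. The 12 markers summed to 1817 FPKM in urethra and 3282 FPKM in hindgut, with a median difference of -0.64. In ventral and dorsal cloaca their sums were 1848 and 1948 FPKM, and 6 of 12 were lower ventrally. No marker in this list was at 0 in any group, but Elf3 was below the minimum at E10.5, with 0.890 FPKM in ventral and 0.660 in dorsal cloaca. When the regions of E13.5 were scaled to the median of these markers, a choice made after seeing the data, the median difference of the features above the minimum was 0.59, beside 0.01 as deposited. Relative to the markers, Tmprss2 then lay at -0.48, Tmprss4 at -2.05, Prss8 at -0.07 and Prss22 at 1.25, while St14, Hpn, Spint1 and Spint2 turned from lower to higher in urethra, at 0.34, 0.16, 0.24 and 0.32.

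Markers of other cells were also measured. The 8 mesenchyme markers summed to 112 FPKM in urethra and 109 in hindgut, and to 109 in ventral and 106 in dorsal cloaca, with none at 0. Single mesenchyme markers nevertheless differed in both directions past 2-fold: at E13.5 Prrx1 by 1.59, Col1a2 by -1.12 and Col3a1 by -1.09, and at E10.5 Twist1 by 1.77 and Col3a1 by -1.70. The median difference of those above the minimum was -0.35 at E13.5 and -0.26 at E10.5. Vim had the highest level of the list at E13.5, with 73.0 FPKM in urethra and 58.1 in hindgut, and Prrx1 at E10.5, with 65.1 in ventral and 44.7 in dorsal cloaca. None of 5 endothelium or 5 neuron markers reached 1 FPKM in any group. The 5 macrophage markers summed to 23.3 FPKM in urethra and 0.155 in hindgut, where C1qa and C1qb were at 0, and to 1.20 in ventral and 1.64 in dorsal cloaca. The 4 globin markers summed to 75.7 FPKM in urethra and 34.9 in hindgut, and to 1178 in ventral and 884 in dorsal cloaca. The 7 intestinal markers summed to 1.57 FPKM in urethra and 92.5 in hindgut, and to 6.79 in ventral and 21.1 in dorsal cloaca. Of these 6 passed the minimum at E13.5, and all 6 were at least 2-fold lower in urethra, against 4.59% of all features above the minimum. Cdx2 had 0.025 FPKM in urethra and was listed at 0 in hindgut. At E10.5 single genes made up most of each sum: Vil1 was higher ventrally, with 5.99 FPKM in ventral and 1.83 in dorsal cloaca, and Cdx2 was lower ventrally, with 0.153 FPKM in ventral and 15.5 in dorsal cloaca. The span of Vil1 is listed jointly with those of other features, so its level is less certain. All 5 markers of stratified or surface epithelium were at least 2-fold higher in ventral than in dorsal cloaca, against 10.6% of all features above the minimum. These 5 markers summed to 189 and 13.4 FPKM, with Krt14 at 0 in dorsal cloaca. In urethra and hindgut they summed to 1279 and 812 FPKM. The part of these markers in the regional values of Prss22, Tmprss2 and Tmprss4 was not tested.

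Among 17 substrates and partners matched out of 18 listed, 10 passed the minimum at E13.5 and 10 at E10.5. At E13.5, 2 were at least 2-fold lower and 2 higher in urethra than in hindgut, with a median difference of -0.32. At E10.5, 3 were lower and 2 higher in ventral than in dorsal cloaca, with a median difference of 0.01. Over all features above the minimum, 4.59% were lower and 4.16% higher at E13.5, and 9.62% and 10.6% at E10.5. With so few genes the counts say nothing about the list as a group. F2rl1, which encodes the protease-activated receptor PAR2 at the cell surface, had 6.89 FPKM in the E13.5 urethra and 22.7 in the hindgut, a difference of -1.59. At E10.5 it had 2.36 FPKM in ventral and 19.3 in dorsal cloaca, a difference of -2.59. It was the 1 partner at least 2-fold lower on the ventral side at both ages, although scaling to the epithelium markers brought the E13.5 difference to -0.99.

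Scnn1a, the alpha subunit of the epithelial sodium channel that prostasin activates, had 1.22 FPKM in the E13.5 urethra and 1.98 in the hindgut. At E10.5 it had 0.677 FPKM in ventral and 21.4 in dorsal cloaca, a difference of -3.74. The high dorsal level was seen at E10.5, whereas Prss8 had 35.8 and 37.9 FPKM in ventral and dorsal cloaca. Scnn1g, the gamma subunit, reached 2-fold higher in urethra at E13.5, at 2.61 and 0.487 FPKM, and is named here after its values were seen. The beta subunit gene Scnn1b had 0.471 FPKM in urethra and 0.0494 in hindgut.

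Epcam and Cldn7 encode an adhesion protein and a claudin that bind each other, and matriptase cleaves EpCAM where HAI-2 is lacking. Epcam had 235 FPKM in the E13.5 urethra and 377 in the hindgut, and 184 in ventral and 237 in dorsal cloaca at E10.5. Cldn7 had 144 FPKM in urethra and 342 in hindgut, a difference of -1.24 that was -0.60 after scaling to the epithelium markers, a list that holds both genes, and 38.6 in ventral and 29.4 in dorsal cloaca, a difference of 0.38. Egfr, a growth factor receptor gene, was at least 2-fold higher on the ventral side at both ages, at 10.8 FPKM in urethra and 3.42 in hindgut, with 3.70 in ventral and 0.212 in dorsal cloaca. Its differences of 1.42 and 1.96 became 0.91 and 0.74 with a pseudocount of 5. Hgf, whose product hepsin and matriptase can activate, was low, with 0.405 FPKM in urethra and listed at 0 in hindgut, and 0.571 in ventral and 0.0091 in dorsal cloaca. The other genes past 2-fold were, named after their values were seen, Tgm1 with 2.65 FPKM in ventral cloaca and listed at 0 in dorsal cloaca, and Plau with 0.0074 in ventral and 1.21 in dorsal cloaca. With a pseudocount of 5 Scnn1g, Tgm1 and Plau fell short of 2-fold, at 0.47, 0.61 and -0.31.

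**Figure D5:**
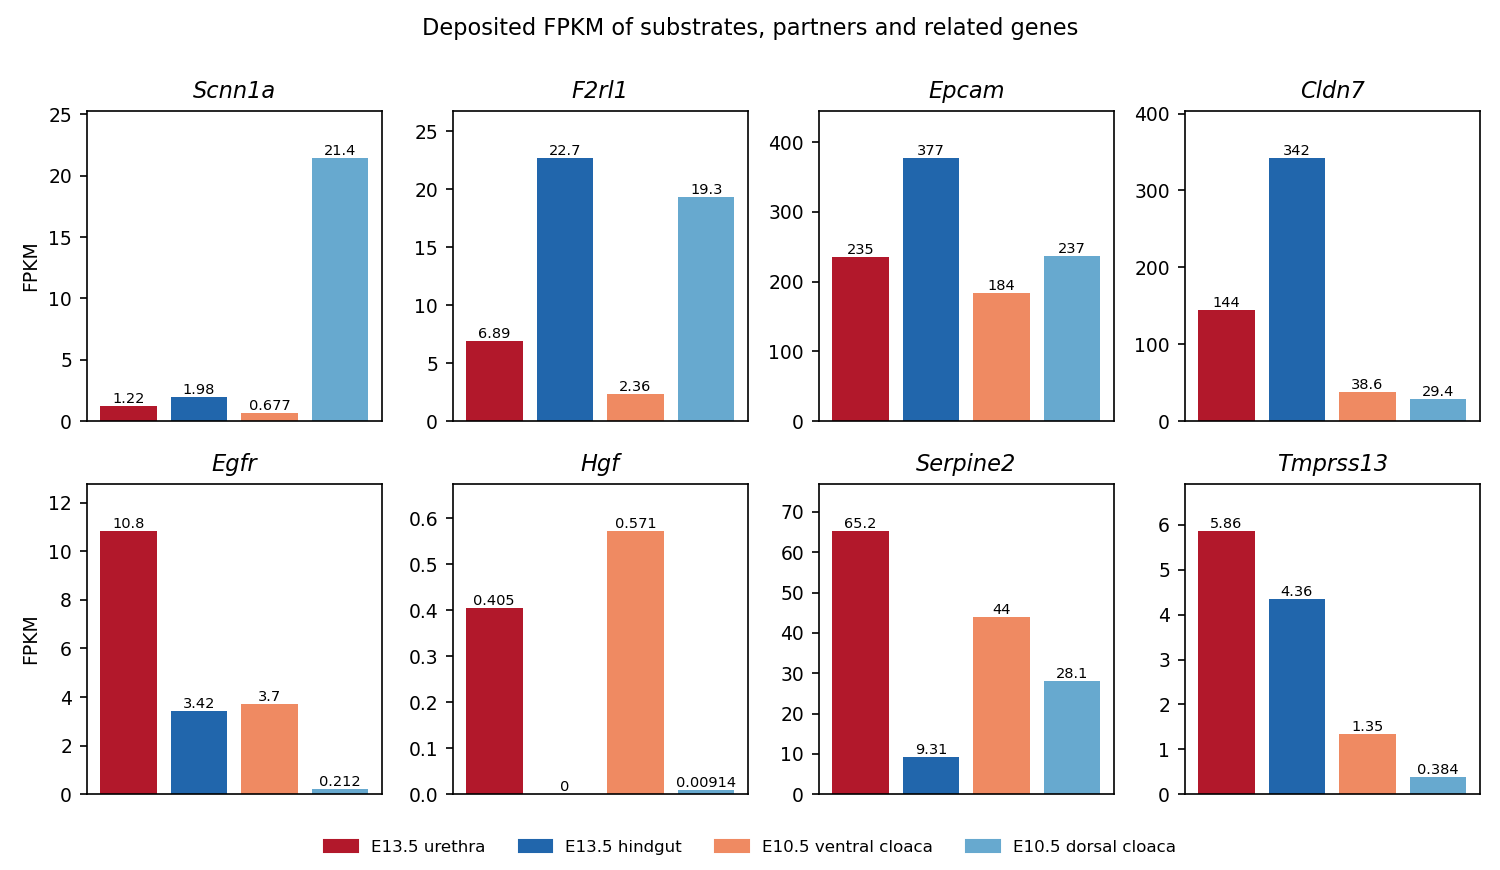
Deposited FPKM of 6 substrates and partners and of Serpine2 and Tmprss13, 1 panel each with its own axis from 0, in the same 4 groups, without error. F2rl1 reads 6.89 FPKM in urethra, 22.7 in hindgut, 2.36 in ventral and 19.3 in dorsal cloaca, and Scnn1a reads 0.677 FPKM in ventral and 21.4 in dorsal cloaca.

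Most further membrane-anchored serine protease genes were listed below 1 FPKM, although depth is unknown and a value of 0 may be a failed estimate. Of 20 listed and matched, 1 passed the minimum at either age, and 6 at E13.5 and 13 at E10.5 were listed at 0 in both regions. The 1 gene was Tmprss13, a further type II transmembrane protease gene, with 5.86 FPKM in urethra and 4.36 in hindgut, and 1.35 in ventral and 0.384 in dorsal cloaca, within 2-fold at both ages, although a pseudocount of 0.1 gave a difference of 1.58 at E10.5. Its span is listed jointly with that of a neighbouring feature, so that its level is less certain. Tmprss13 was above Hpn and Tmprss4 in urethra and above Tmprss4 in ventral cloaca. The others in this list were below 1 FPKM in all 4 groups. In ventral cloaca Tmprss7, Prss41 and Corin, at 0.481, 0.434 and 0.286 FPKM, were nevertheless above Tmprss4, which was listed at 0. In dorsal cloaca Corin, at 0.881 FPKM, was above Tmprss4.

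Of 13 other inhibitors of serine proteases, 8 passed the minimum at either age. At E13.5, 1 was at least 2-fold higher and 1 lower in urethra than in hindgut, with a median difference of 0.07. At E10.5, 0 were higher and 1 lower in ventral than in dorsal cloaca, with a median of 0.36. Shares over all features above the minimum were 4.16% higher and 4.59% lower at E13.5, and 10.6% and 9.62% at E10.5. The counts of so short a list say nothing about it as a group. Serpine2, whose product protease nexin 1 inhibits prostasin among others, had 65.2 FPKM in urethra and 9.31 in hindgut, a difference of 2.68. At E10.5 it had 44.0 FPKM in ventral and 28.1 in dorsal cloaca, a difference of 0.63. Aplp2, which has a Kunitz domain in some isoforms, had 44.6 FPKM in urethra and 39.1 in hindgut, and 101 in ventral and 76.0 in dorsal cloaca. The lower ones, named after their values were seen, were Slpi with 0.0216 FPKM in urethra and 1.11 in hindgut, and Serpinf2, listed at 0 in ventral cloaca and at 1.05 FPKM in dorsal cloaca. Both fell short of 2-fold with a pseudocount of 5, at -0.28 and -0.27.

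The genes most like a member were sought as those with the smallest Euclidean distance over the 4 groups, after each gene's log2(FPKM + 1) values were centred on their mean. There were 10098 features with at least 5 FPKM in any group. The closest to Tmprss2 were Lsp1, Samd1 and Gstt2, at distances of 0.16, 0.18 and 0.22. Samd1 had 28.8 FPKM in urethra and 56.4 in hindgut, and 24.1 in ventral and 62.8 in dorsal cloaca. The closest to St14 were Ssr2, Pacsin2 and Tax1bp3 at 0.025, 0.034 and 0.042. The closest to Prss8 were Pola2, Trak2 and Inppl1 at 0.092, 0.10 and 0.13. Ost4 and Dap were closest to Spint1 at 0.054 and 0.065, and Hmgn2, Nnat and Ppp1r35 to Spint2 at 0.031, 0.050 and 0.055. With only 4 points per gene, a small distance describes a shared profile and no more.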

How the data were processed

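Embryonic tissue was cut by laser and RNA from each region of each embryo was amplified from sub-nanogram amounts and sequenced, per the labels' protocols. The authors deposited FPKM values in 2 tables of 23234 features with a ventral and a dorsal column, per the file headers. Per the submitters' processing notes, Cufflinks 2.2.1 and mm10 were used. The sources used here do not give the aligner, the annotation, whether strand was used or how 4 libraries became 1 value. If strand was not used, reads of antisense genes cannot be told apart. Depth is unknown, and a value of 0 may be a failed estimate. Features whose span another feature has number 3801.

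The members, lists and alternatives were chosen with earlier results of these data known. A linear model would need values per library, so the deposited values are described without a test. Python 3.11.15, pandas 2.3.3 and numpy 2.4.6 were used. Features with at least 1 FPKM in either region were kept, differences of log2(FPKM + 1) were taken as ventral minus dorsal side, and 2-fold was the size counted. This scale understates changes of low genes. Where a symbol had several features, the one with the highest summed FPKM was taken. Start positions were raised by 1, to count from 1. Exon overlaps come from GENCODE vM21 and promoters from RefSeq. Only the difference and the 2-fold rule were tried on simulated data, with changes well past 2-fold planted in features averaging at least 5 FPKM. Changes near 2-fold, features near the minimum and the other steps were not tried in this way. Alternatives were pseudocounts of 0.1 and 5, no minimum, a minimum of 5 FPKM, upper-quartile and quantile scaling, and scaling to epithelium markers. Named genes were the 8 members, up to 4 genes per list and age past 2-fold with at least 5 FPKM, otherwise the most abundant of the list, Scnn1a, Epcam, F2rl1 and Hgf in any case, and the 3 genes most like each of 5 members, of which 1 is not reported here. Single marker genes, Tmprss7, Prss41 and Corin were named after their values were seen.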

Additional observations from a re-analysis of the deposited data

How the results depend on the processing

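No paired analysis was possible because the tables hold no value per library, and for the same reason no replicate could be left out. Over 7 alternatives, the member differences stayed on their side of 2-fold in 100 cases, fell short of it in 3 (Tmprss2) and reached it in 1 (Prss22). The 100 include all cases of no minimum and of a minimum of 5 FPKM. Those settings alter only which features are kept, so the differences could not change under them. Signs changed within 2-fold for St14, Hpn, Spint1 and Spint2 at E13.5 under marker scaling, and for Hpn at E10.5. With a pseudocount of 5, 0 members were lower in ventral cloaca and 1 in urethra, because Tmprss2 fell short. Over all features, 325 of 12379 were lower in ventral cloaca with that pseudocount, beside 1191 with the pseudocount of 1. In urethra, 227 of 12369 were lower, beside 568. After scaling to the epithelium markers, 1 member (Prss22) was higher in urethra and 1 (Tmprss4) lower. Over all features, 1634 of 12471 above the minimum were then higher in urethra and 267 lower. As deposited, 515 of 12369 were higher and 568 lower. The difference of Hpn at E10.5 lay between -0.05 and 0.02.

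Without the most abundant protease the inhibitor to protease ratio was 5.65 in urethra, 4.72 in hindgut, 2.98 in ventral and 3.64 in dorsal cloaca, and as Spint1 over St14 it was 2.70, 2.90, 3.47 and 3.06. So the higher E13.5 ratio was not seen for Spint1 over St14.

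With a pseudocount of 0.1, 1 further membrane-anchored protease was higher in ventral cloaca. Among partners, 0 were higher in ventral cloaca with a pseudocount of 5 or a minimum of 5 FPKM, 0 with that pseudocount and 1 with that minimum were higher in urethra, and 0 were lower in urethra after marker scaling. Among other inhibitors, either setting of 5 left 0 lower in ventral cloaca and 0 lower in urethra, and marker scaling gave 2 higher and 0 lower in urethra. List medians moved too. The partner median at E13.5, -0.32 as deposited, was 0.34 after marker scaling and 0.01 with no minimum. At E10.5 it was 0.01 as deposited and -0.47 with a minimum of 5 FPKM. The median of the other inhibitors at E13.5 was 0.07 as deposited and 0.82 after marker scaling. Among the genes most like a member, 3 of 3 were found again with a pseudocount of 0.1 for St14 and Prss8, and 2 of 3 for Tmprss2, Spint1 and Spint2.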

Other observations

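Wfdc2, which encodes a secreted protein of the whey acidic protein family and was picked after its values were seen, was the most abundant of the other inhibitor genes at E13.5, with 246 FPKM in urethra and 457 in hindgut. At E10.5 it had 51.2 FPKM in ventral and 80.6 in dorsal cloaca. Its difference was -0.89 at E13.5 and -0.64 at E10.5, within 2-fold at either age. After scaling to the epithelium markers it was -0.25 at E13.5 and -0.65 at E10.5.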
